A study of Mus musculus with 12 samples.

Results

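The 172 gene bodies described here carried the highest non-CG methylation in wild-type mouse cortex at postnatal day 40 (P40). Non-CG methylation (mCH) is methylation of a cytosine that is not followed by guanine, and its level is the percentage of non-CG cytosine calls in a gene that were methylated. A gene body was included when its level, pooled over the 4 P40 wild-type (WT) libraries, was 3% or more and its mean number of calls over the 12 libraries was 5000 or more. Symbols that begin with Prss, Klk, Serpin, Cyp, Krt, Col, Olfr, Kcn, Sema or Eph were left out, among them 3 that met both criteria. This left 14229 gene bodies in scope, and 172 of them (1.21%) were members. Of the members 139 were protein-coding genes, 32 were long non-coding RNA genes and 1 was a transcribed pseudogene. The members were thus selected on the P40 WT levels, and the P40 comparison shares those libraries, so all P40 values below are a description with no test. The 4-month libraries entered the choice through their number of calls but not through their levels, and the tests are confined to the 4-month comparison. The spread used in those tests was estimated from all 12 libraries, so the P40 libraries that chose the members enter it.

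Whole-genome bisulfite sequencing was done on cortex of C57BL/6 mice; in this method an unmethylated cytosine is read as thymine. At P40 the labels gave 4 WT libraries and 4 libraries of miR29 knockout (KO) mice. At 4 months they gave 2 WT libraries and 2 of mice with the Dnmt3a mi5 genotype, whose titles read DNMT3AmiR29MUT. The labels do not say which miR-29 genes the KO lacks, in which cells, or whether a library is 1 animal, and p-values take account only of how these libraries vary. Whole cortex holds neurons, glia and vascular cells, and a change in the mix of cells and a change of methylation within a cell cannot be told apart in it.

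DNMT3A is the enzyme that deposits most mCH in the brain. In mouse cortex mCH builds up in neurons after birth and is densest in the sequence CAC. Genes that are active in neurons tend to have little mCH over their bodies, whereas genes silent there can have more. The microRNA family miR-29 represses target messenger RNAs, and Dnmt3a is among its known targets.

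The promoters of 4 members are shown because these genes mark the extremes of the set. Agmat and Tmem35a had very high levels and did not pass the test at 4 months, Smad5 had one of the higher P40 WT levels, and Cd82 had the largest 4-month odds ratio of mutant against WT among members with a proper symbol. Each sequence runs 5′ to 3′ on the gene's strand, from 250 bases before to 50 bases after the annotated start, as given by RefSeq for GRCm38.p6, with each CG in capitals. Agmat is at chr4:141746425-141746724 on the plus strand, Tmem35a at chrX:134294975-134295274 on the plus strand, Smad5 at chr13:56702760-56703059 on the plus strand and Cd82 at chr2:93462901-93463200 on the minus strand.
Agmat: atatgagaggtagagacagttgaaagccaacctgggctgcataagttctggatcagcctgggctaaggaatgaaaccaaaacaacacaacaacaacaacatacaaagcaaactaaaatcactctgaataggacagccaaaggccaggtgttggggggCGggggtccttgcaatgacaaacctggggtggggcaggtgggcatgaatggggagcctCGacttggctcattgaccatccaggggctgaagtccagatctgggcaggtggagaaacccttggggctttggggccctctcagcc
Tmem35a: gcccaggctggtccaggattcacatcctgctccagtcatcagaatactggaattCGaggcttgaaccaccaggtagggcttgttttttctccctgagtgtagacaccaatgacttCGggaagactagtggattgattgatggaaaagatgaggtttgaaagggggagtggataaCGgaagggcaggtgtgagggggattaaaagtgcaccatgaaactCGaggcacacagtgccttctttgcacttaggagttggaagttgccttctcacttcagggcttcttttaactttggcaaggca
Smad5: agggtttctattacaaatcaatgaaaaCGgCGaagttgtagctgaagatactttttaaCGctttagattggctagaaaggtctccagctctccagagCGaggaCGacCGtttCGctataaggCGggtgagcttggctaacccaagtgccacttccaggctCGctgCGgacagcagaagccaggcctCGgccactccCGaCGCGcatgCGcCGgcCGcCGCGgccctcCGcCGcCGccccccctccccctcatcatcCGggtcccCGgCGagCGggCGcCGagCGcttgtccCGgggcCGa
Cd82: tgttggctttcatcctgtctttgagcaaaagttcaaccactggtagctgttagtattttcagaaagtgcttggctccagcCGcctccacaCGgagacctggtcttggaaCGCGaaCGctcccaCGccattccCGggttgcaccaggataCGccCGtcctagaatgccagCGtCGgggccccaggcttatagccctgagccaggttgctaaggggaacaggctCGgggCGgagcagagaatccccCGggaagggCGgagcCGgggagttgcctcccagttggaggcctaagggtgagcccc
The Agmat window holds 2 CG, that of Tmem35a 4, that of Cd82 16 and that of Smad5 31. The deposited tables give one value for a whole gene and none for its promoter, so these windows carry no measured methylation of their own. Agmat, Smad5 and Cd82 have 2, 3 and 4 entries in the RefSeq table, of which the first is shown.

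The members together had 5784436 to 11226239 non-CG calls per library, and the median member had 13803.5 to 27389.5 calls. Pooled over calls, their level was 2.96%, 3.65%, 3.40% and 3.04% in the 4 P40 WT libraries (95% Wilson interval of the first 2.95 to 2.97, for counting error only). It was 5.40%, 5.09%, 4.86% and 3.98% in the 4 miR29 KO libraries. At 4 months it was 3.05% and 3.12% in WT and 5.26% and 5.20% in Dnmt3a mi5. Each mutant library therefore lay above each WT library of its age, and the fourth KO library lay closest to WT. Coverage of Y-linked genes was low in 1 library of each group (P40 WT 2, KO 3, 4-month WT 2 and mi5 1). The 4-month difference was 2.14 percentage points between the libraries with low coverage and 2.15 points between the others. At P40 these differences were 1.22 and 1.69 points.

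**Figure D1:**
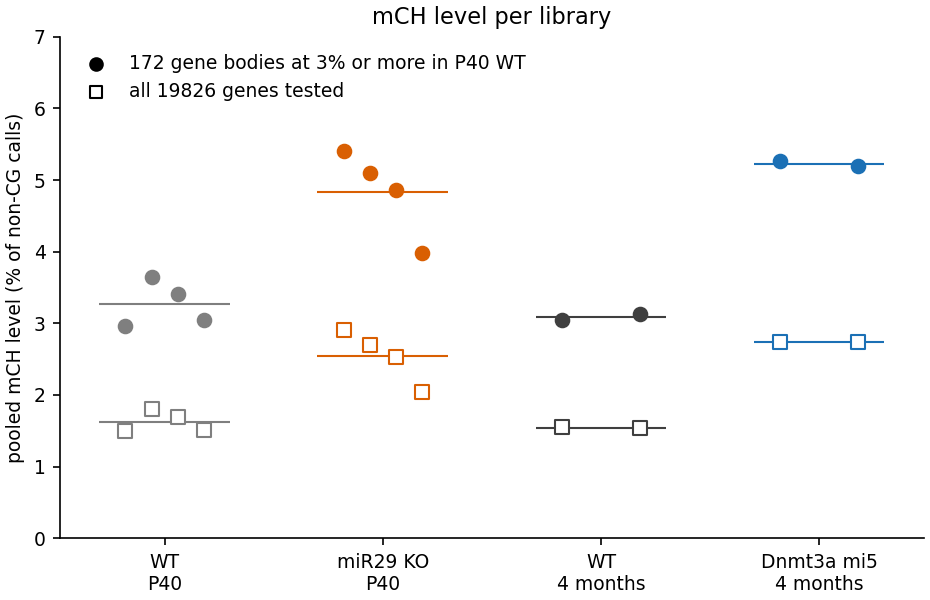
Pooled mCH level per library (y axis, % of non-CG calls) in the 4 groups (x axis). Filled circles are the 172 gene bodies, open squares are all 19826 genes tested, and lines are group means: at 4 months the members went from 3.05% and 3.12% in WT to 5.26% and 5.20% in mi5.

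At 4 months nearly all of these gene bodies were more methylated in the Dnmt3a mi5 cortex. Of the 172 members 167 rose and 0 fell at an adjusted p under 0.05 (quasi-binomial model with limma-moderated dispersion, Benjamini-Hochberg adjusted over all 19826 genes tested), and 168 had an unadjusted p under 0.05. The rise was general, since 58.8% of all genes tested, and 70.2% of those with 5000 mean calls or more, rose at that adjusted p threshold. The unadjusted p of this model was under 0.05 in 12864 of the 19826 genes. The 2 mutant libraries exceeded the 2 WT libraries in 169 members, against 86.2% of all genes and 93.6% of those with 5000 mean calls or more. The members' pooled level went from 3.08% ± 0.0544 (SD, n = 2) to 5.23% ± 0.0479 (SD, n = 2), a ratio of 1.70, while that of all genes tested went from 1.54% ± 0.00290 to 2.74% ± 0.00130, a ratio of 1.78. When WT_4mo replicate 1 was left out, 115 members and 4547 of all genes passed, and when WT_4mo replicate 2 was left out, 148 members and 6237 genes. Fewer members and fewer genes also passed when either Dnmt3a_mi5_4mo library was left out. Counts of members that passed whichever 4-month library was omitted, given below, were taken over members only. They have no share over all genes beside them, so nothing is read from them.

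In percentage points the median gain of the members was above that over all genes. In odds the medians of the main fit were alike, though not under every processing given at the end. Their median difference was 2.18 points (quartiles 1.91 and 2.43), against 0.959 points over all genes tested. Of the members 115 gained 2 points or more, as did 1606 of the 19826 genes tested. Among the 843 genes in scope from 2.5 to 3% in P40 WT, 371 did. The log2 odds ratio, a fold change of the odds that a call is methylated, had a median of 0.82 in the members (quartiles 0.71 and 0.90, range 0.12 to 1.19) and 0.82 over all genes. It was 0.84 in the gene bodies in scope below 3%. After subtraction of each library's median log odds over genes, here called centring, which removes a shift common to all genes, the median of the members was -0.049 and that of all genes -0.041. After centring 0 of all 19826 genes rose and 7 fell. Of the members 0 rose, and Sox6 alone fell (by 0.23, adjusted p = 0.0216). A positive log2 odds ratio was left in 53 members. The unadjusted p was then under 0.05 in 23 members. These last counts were not taken over all genes, so nothing is read from them.

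**Figure D2:**
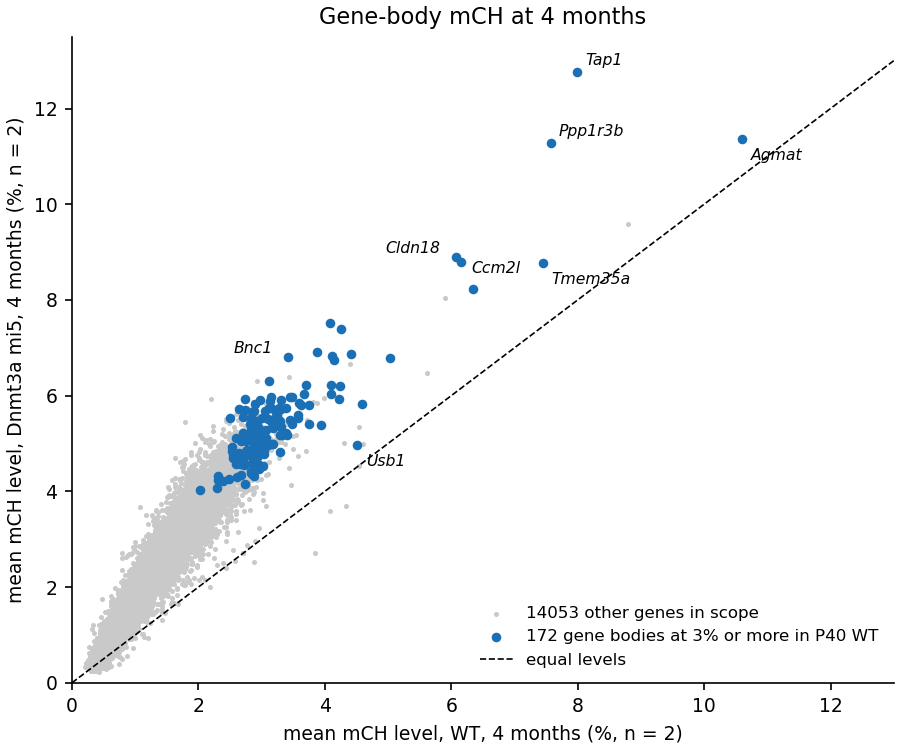
Mean mCH level of each gene body in 4-month WT (x axis, %) and Dnmt3a mi5 (y axis, %; n = 2 each). Blue points are the 172 members, grey points the 14053 other tested genes in scope, and the dashed line marks equal levels: Tap1 lies far above it, and Agmat and Usb1 lie near it.

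Ordered by their P40 WT level, the genes showed a steady increase of the 4-month difference in points. The median log2 odds ratio was highest from 1.5 to 2.5% and declined above that. In the 867 genes below 0.5% the median difference was 0.126 points and the median log2 odds ratio 0.35. In the 3031 genes from 1 to 1.5% the medians were 0.938 points and 0.85. The 3171 genes from 1.5 to 2% had 1.37 points and 0.90, and the 2292 genes from 2 to 2.5% had 1.70 points and 0.90. The 843 genes from 2.5 to 3% had 1.95 points and 0.87, and the members 2.18 points and 0.82. The share that rose was 2.42%, 79.2%, 89.7%, 95.9%, 96.9% and 97.1% in these bands, so in this share the members were close to the bands just below them.

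**Figure D3:**
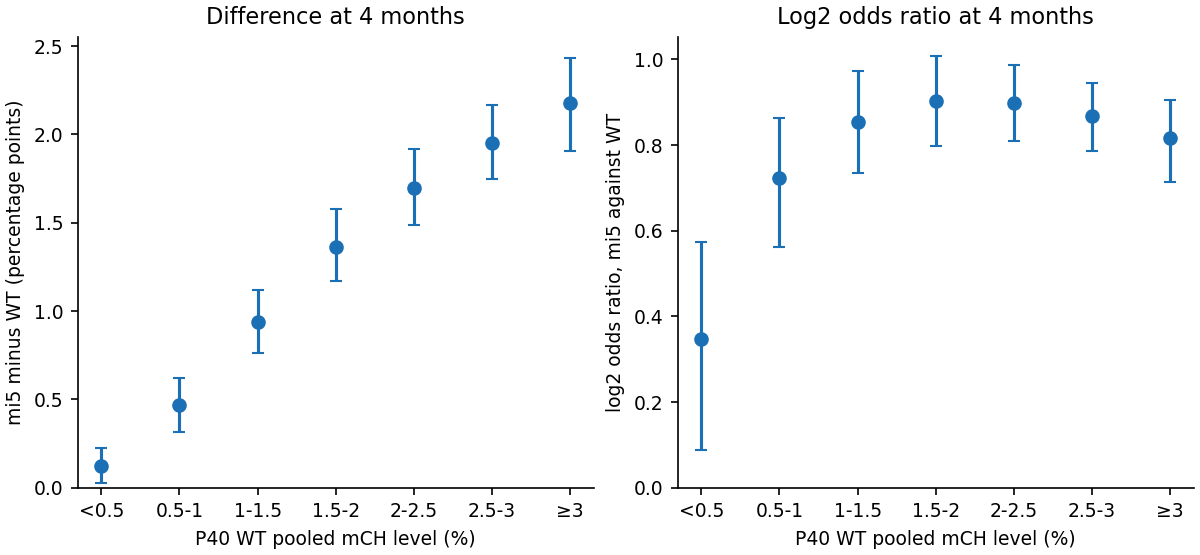
Median difference at 4 months by band of P40 WT level (x axis, %), in percentage points (left) and as log2 odds ratio (right), for genes with 5000 mean calls or more; bars are quartiles. The last band is the 172 members, at 2.18 points and 0.82.

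The 5 members that did not pass the test all had fewer than 10000 mean calls. All 77 members with 10000 to 50000 mean calls rose, as did all 48 with 50000 or more, and 42 of the 47 below 10000 calls rose. These counts were taken over members only, so no share of all genes at like depth stands beside them. The 5 members that did not pass were Agmat, Tmem35a, Usb1, Fam71f2 and 4933408N05Rik. Agmat encodes agmatinase, which splits agmatine. Its level was 9.87% and 11.3% in 4-month WT and 11.4% and 11.3% in mi5, a log2 odds ratio of 0.12 (SE 0.14, adjusted p = 0.448). Both WT libraries were thus already close to the mutant ones. Usb1, an RNA exonuclease that trims U6 RNA, had 4.03% and 5.0% in WT and 5.62% and 4.32% in mi5 (adjusted p = 0.517), so its groups overlapped. Fam71f2 had 3.69% and 5.50% in WT and 6.35% and 5.28% in mi5 (adjusted p = 0.221), and these groups overlapped too. The non-coding locus 4933408N05Rik had 4.18% and 3.30% in WT and 5.32% and 5.51% in mi5, separated but with an adjusted p of 0.0695.

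Tmem35a encodes a chaperone of nicotinic acetylcholine receptors and its promoter is on the X chromosome. Its level was 9.25% and 5.64% in 4-month WT and 8.55% and 8.98% in mi5 (log2 odds ratio 0.34, adjusted p = 0.301), and the groups overlapped. The lower WT value belonged to the library with low Y-gene coverage. At P40 the libraries with low Y-gene coverage were also the lowest of their groups, with 3.75% in WT against 4.67 to 5.61% in the others and 3.93% in the KO against 4.80 to 7.13%. Relative to all calls, Tmem35a had 1.57 times as many calls in the 4 libraries with low Y-gene coverage as in the others, and the next member had 1.10 times. The part of the X chromosome number in these levels was not tested.

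The members with the highest P40 WT levels were Ppp1r3b and Agmat, followed at 4% or more by the non-coding locus A930004D18Rik, Tmem35a, Tap1, Smad5, Wnt5a, Bag3, Tex9, Crnde and Cldn18. Ppp1r3b encodes the subunit that brings protein phosphatase 1 to glycogen. It had 5.61%, 6.21%, 4.93% and 6.42% in the P40 WT libraries and 7.86%, 7.14%, 6.92% and 6.75% in the KO. At 4 months it had 5.6% and 9.54% in WT and 11.4% and 11.2% in mi5. The groups did not overlap at either age, but the 4-month WT libraries stood far apart, and the call (log2 odds ratio 0.65, SE 0.18, adjusted p = 0.00632) missed the threshold when WT_4mo replicate 1 was omitted (adjusted p = 0.169).

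Tap1 encodes a subunit of the transporter that loads peptides for display on MHC class I. It had 7.64% and 8.35% in 4-month WT and 14.2% and 11.4% in mi5, where it reached the highest level of any member. Its difference of 4.78 points was the largest of the members (log2 odds ratio 0.76, SE 0.18, adjusted p = 0.00356). With Dnmt3a_mi5_4mo replicate 1, the higher mutant library, omitted, the adjusted p was 0.0545. Bag3, a co-chaperone that directs misfolded proteins to autophagy, rose from 3.25% and 4.93% to 6.80% and 8.25% (adjusted p = 0.00351; 0.0557 with WT_4mo replicate 1 omitted). Crnde, a long non-coding RNA, rose from 3.37% and 3.89% to 6.03% and 5.58% (adjusted p = 0.00305), also with any of these 4 libraries left out. A930004D18Rik had 6.27% and 6.43% in WT and 8.80% and 7.65% in mi5, and its call (adjusted p = 0.0160) missed the threshold when either WT library or Dnmt3a_mi5_4mo replicate 1 was omitted (adjusted p = 0.0582 to 0.155).

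**Figure D4:**
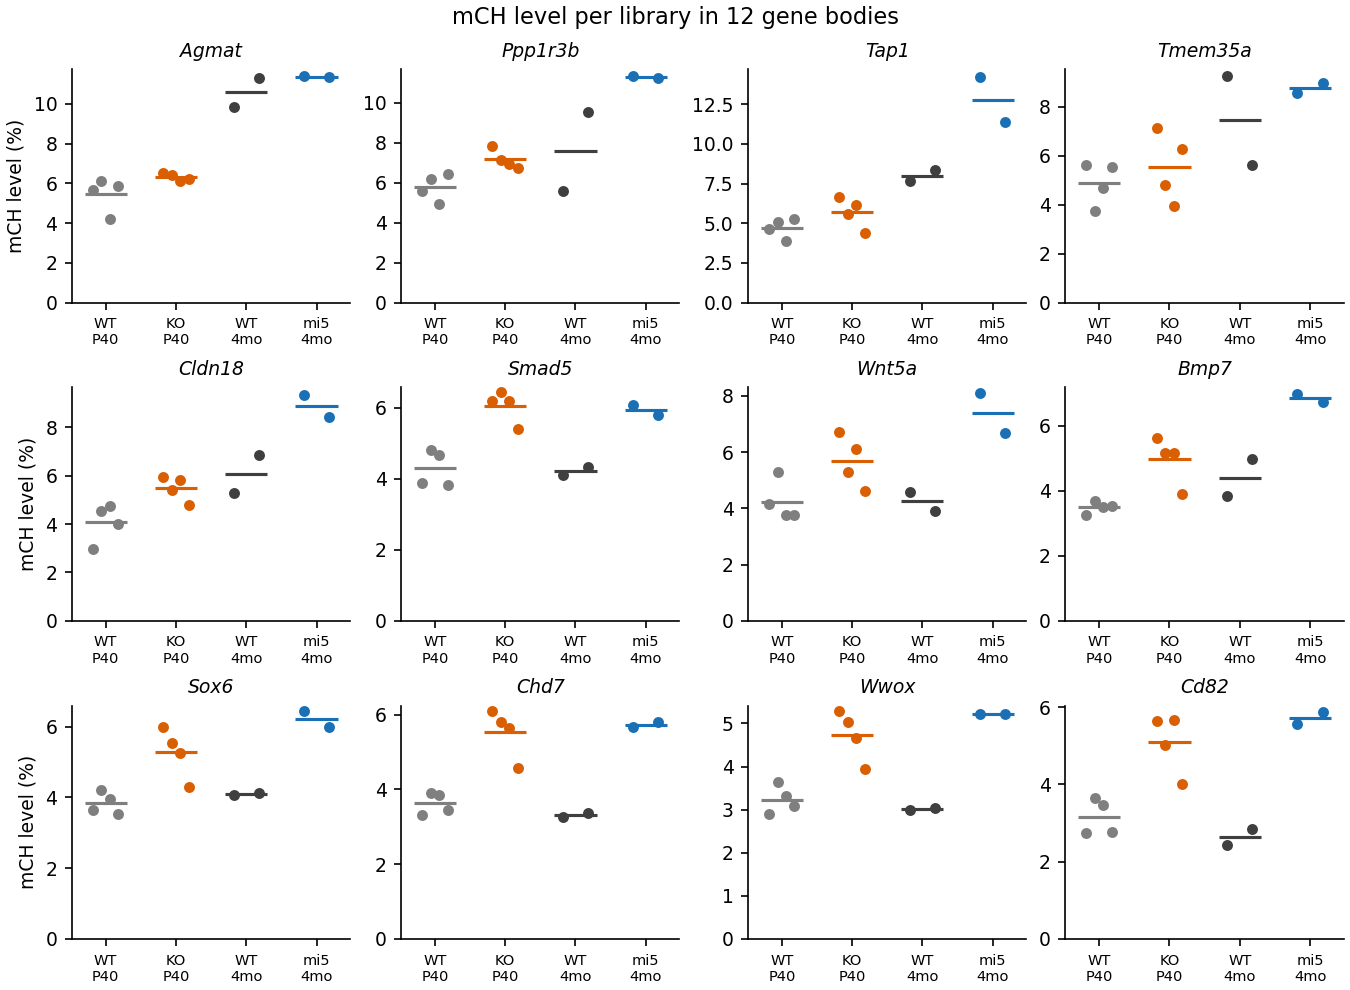
mCH level (y axis, %) of 12 members in each library, by group (x axis: WT and KO at P40, WT and mi5 at 4 months). Points are libraries and lines group means: Agmat reached 9.87% and 11.3% in 4-month WT, and in Wwox the 2 mi5 libraries had 5.21% and 5.22%.

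The groups of function that follow were put together after the values were seen. Members named in them beyond those the naming rule gives were also chosen after their values were seen. Of all 172 members 97.1% rose, and of genes tested with 5000 mean calls or more 70.2% rose. The counts per group that rose stand beside these shares. Those that passed whichever 4-month library was left out have no share over all genes. Nothing about a function is read from either kind of count. Transcription factors and chromatin regulators formed the largest group, with 22 members, of which all 22 rose at 4 months (median log2 odds ratio 0.82), 17 of them whichever 4-month library was left out. Sox6, a SOX family factor that guides interneuron and oligodendrocyte development, had 4.08% and 4.12% in WT and 6.45% and 5.98% in mi5 (log2 odds ratio 0.63, SE 0.14, adjusted p = 0.00309). Its P40 levels were 3.53 to 4.20% in WT and 4.30 to 6.00% in the KO. Chd7, a chromatin remodeller, rose from 3.27% and 3.36% to 5.67% and 5.79% (log2 odds ratio 0.83, adjusted p = 0.00305). The WT libraries of both genes differed from each other by far less than from the mutant ones.

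Other factors of this group rose by similar amounts. Zfp521, a zinc finger factor of neural progenitors, went from 3.38% and 3.23% to 5.35% and 5.34%, and its relative Zfp423 from 3.17% and 3.14% to 5.58% and 5.39% (adjusted p = 0.00305 each). Pbx3, a partner of HOX proteins, went from 3.60% and 3.59% to 5.83% and 5.85%. Tead1, the DNA-binding partner of YAP, went from 3.40% and 3.56% to 6.12% and 5.84%. Nfia, a factor of glial differentiation, went from 2.68% and 2.72% to 4.70% and 4.61% (adjusted p = 0.00305). In all 5 the KO libraries lay above the WT libraries at P40 as well, Nfia with 2.78 to 3.47% in WT and 3.59 to 4.94% in the KO. The same held for 57.1% of all genes tested and 67.0% of those with 5000 mean calls or more.

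Bnc1, a zinc finger protein of keratinocytes and germ cells, had the largest change of the transcription factors. It rose from 3.38% and 3.44% to 6.73% and 6.89% (log2 odds ratio 1.05, SE 0.18, adjusted p = 0.00305). Gbx1, a homeobox factor, had their smallest log2 odds ratio, with 3.96% and 6.11% in WT and 7.25% and 6.34% in mi5 (log2 odds ratio 0.47, adjusted p = 0.0315). Its WT libraries were far apart, and the adjusted p was 0.479 when WT_4mo replicate 1 was omitted and 0.176 when Dnmt3a_mi5_4mo replicate 1 was. Cux1, a factor of upper-layer cortical neurons, was the single member on the lists of cell type markers. It had 3.02% and 3.03% in WT and 4.60% and 4.47% in mi5 (log2 odds ratio 0.60, SE 0.20, adjusted p = 0.0160). Cux1 did not pass when any 1 of the 4-month libraries was omitted (adjusted p = 0.0546 to 0.0840).

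Among Notch, Wnt and BMP signalling genes all 12 members rose (median log2 odds ratio 0.82), and 7 did so whichever 4-month library was left out. The secreted ligand gene Wnt5a had 4.59% and 3.92% in WT and 8.08% and 6.69% in mi5 (log2 odds ratio 0.82, SE 0.22, adjusted p = 0.00513). At P40 its groups overlapped, with 3.76 to 5.28% in WT and 4.61 to 6.72% in the KO. The Wnt receptor gene Fzd6 rose from 2.55% and 2.94% to 5.16% and 4.95% (adjusted p = 0.00305). Nkd1, which encodes an inhibitor of Wnt signalling, rose from 2.57% and 2.49% to 4.85% and 5.03%, the largest log2 odds ratio of this group (1.0, SE 0.21, adjusted p = 0.00305). The planar polarity gene Vangl1 rose from 3.06% and 2.88% to 5.51% and 5.03% (adjusted p = 0.00305).

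The members included 4 Notch pathway genes, for which no list was drawn up. The ligand gene Jag1 rose from 3.09% and 3.24% to 5.85% and 5.03% (adjusted p = 0.00416), and the receptor gene Notch2 from 2.83% and 3.04% to 5.51% and 4.99% (adjusted p = 0.00305). Maml2, a coactivator of the Notch complex, rose from 3.05% and 2.98% to 5.21% and 5.30% (adjusted p = 0.00305). The Notch target gene Heyl, a repressor, went from 3.05% and 3.73% to 5.62% and 5.84% (adjusted p = 0.00761; 0.0897 with WT_4mo replicate 1 omitted). In all 4 the mutant libraries lay above the WT libraries at both ages. Of genes with 5000 mean calls or more, 93.6% were so separated at 4 months and 67.0% at P40.

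Of the BMP genes, the ligand gene Bmp7 had 3.84% and 4.98% in WT and 7.0% and 6.73% in mi5 (log2 odds ratio 0.67, SE 0.18, adjusted p = 0.00574; 0.0876 with WT_4mo replicate 1 omitted). Smad5, which carries the BMP signal to the nucleus and whose promoter is shown above, had 4.10% and 4.34% in WT and 6.08% and 5.79% in mi5 (log2 odds ratio 0.52, SE 0.15, adjusted p = 0.00814). Smad5 missed the threshold when WT_4mo replicate 1 was omitted (adjusted p = 0.0737) or Dnmt3a_mi5_4mo replicate 1 was (adjusted p = 0.0504). At P40 Smad5 had 3.82 to 4.80% in WT and 5.39 to 6.44% in the KO, above its 4-month mutant levels in 3 of 4 libraries.

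Lists drawn up by symbol show how many of a pathway's genes reached 3%. Of 38 Wnt pathway genes in scope 2 were members (Wnt5a and Fzd6), and all 38 rose at 4 months. Of 59 genes of the FGF, BMP and TGF-beta pathways 3 were members (Smad5, Bmp7 and Gdf10), and 54 rose. Members were 5 of 123 developmental transcription factors (Sox6, Prdm16, Prdm1, Foxo1 and Gata6), of which 98 rose, and 5 of 156 immune receptors and cytokines (Il21, Cxcl12, Cd2, Cd82 and Il17rd), of which 133 rose. Of all genes in scope 70.2% rose. At the share of 1.21% members over all genes in scope, these lists would hold 0.459, 0.713, 1.49 and 1.89 members. The median 4-month log2 odds ratio was 0.87, 0.86, 0.81 and 0.92 over the genes in scope of these lists, against 0.83 over all genes in scope. Il17rd, an inhibitor of FGF signalling, rose from 2.81% and 2.95% to 5.01% and 4.94% (adjusted p = 0.00411).

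Of the 29 lists 17 had no member. Among them were families that act at synapses and on axons, namely the glutamate and GABA receptors (47 genes in scope), the cadherins and protocadherins (84), the calcium, sodium and TRP channels (64), and the contactins, neurexins and related adhesion molecules (49). Families of other functions had none either, such as the myosins, actins and troponins (64), the ADAM and ADAMTS proteases (44) and the integrins and laminins (41). At the share of 1.21% found over all genes in scope, lists of these sizes would hold 0.496 to 1.02 members, so a count of 0 is close to that share. In the 4 families of synapses and axons the median 4-month WT levels were 1.33%, 1.25%, 1.36% and 1.58%, against 1.31% for all genes in scope. Of their genes 37, 64, 55 and 42 rose, where 70.2% of all genes in scope did. The 64 cell type markers in scope held 1 member, Cux1, and 57 of them rose. The DNA methyltransferase and TET genes held 0 members of 8, where the share of 1.21% gives 0.0967.

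The 18 members of cell junctions, the cytoskeleton and adhesion all rose (median log2 odds ratio 0.80), 13 of them whichever 4-month library was left out. Lpp, a LIM protein of focal adhesions, rose from 2.84% and 2.85% to 5.20% and 5.24% (log2 odds ratio 0.91, SE 0.18, adjusted p = 0.00305). Pard3, a scaffold of cell polarity, rose from 2.61% and 2.71% to 4.46% and 4.69% (adjusted p = 0.00326). Lpp had 372934 mean calls and Pard3 327468, and the groups of both were far apart relative to their spread. Cldn18, a tight junction claudin of stomach and lung, had 5.28% and 6.87% in WT and 9.33% and 8.44% in mi5 (log2 odds ratio 0.60, SE 0.18, adjusted p = 0.00911). Cldn18 did not pass when WT_4mo replicate 1 was omitted (adjusted p = 0.127) or Dnmt3a_mi5_4mo replicate 1 was (adjusted p = 0.0638). Perp, a desmosome protein, rose from 4.08% and 3.67% to 6.84% and 7.01% (adjusted p = 0.00305).

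Of 17 metabolic enzymes 16 rose, Agmat being the exception, and 9 did so whichever 4-month library was left out. Wwox, an oxidoreductase known as a tumour suppressor, was the member with the most calls (505526 on average). It had 3.0% and 3.05% in WT and 5.21% and 5.22% in mi5 (log2 odds ratio 0.82, SE 0.18, adjusted p = 0.00305). Its P40 levels were 2.89%, 3.63%, 3.31% and 3.09% in WT and 5.29%, 5.03%, 4.67% and 3.93% in the KO, the same order of libraries as in the pooled level. Ddc, which makes dopamine and serotonin from their precursors, rose from 2.91% and 2.88% to 5.60% and 4.96% (adjusted p = 0.00305). Aldh1a3, which makes retinoic acid, rose from 2.74% and 2.94% to 5.35% and 5.69% (adjusted p = 0.00305). Dmgdh, a mitochondrial enzyme of choline breakdown, had one of the smallest log2 odds ratios, going from 3.46% and 4.43% to 5.04% and 5.75% (0.48, adjusted p = 0.0155). Dmgdh did not pass when WT_4mo replicate 1 was omitted (adjusted p = 0.197) or Dnmt3a_mi5_4mo replicate 2 was (adjusted p = 0.134).

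Immune genes contributed 9 members, and all 9 rose (median log2 odds ratio 0.83), 5 of them whichever 4-month library was left out. Cd82, a tetraspanin, had 2.43% and 2.86% in WT and 5.58% and 5.87% in mi5 (log2 odds ratio 1.17, SE 0.23, adjusted p = 0.00305). It overlaps the non-coding gene Gm10804, which went from 2.19% and 2.81% to 5.01% and 6.07% and had the largest log2 odds ratio of the members (1.19, SE 0.25, adjusted p = 0.00305). The 2 genes lie on opposite strands, and whether the deposited counts share calls between them is not given, so their changes may not be independent. Slamf8, a receptor of myeloid cells, rose from 2.62% and 2.81% to 5.53% and 5.58% (log2 odds ratio 1.08, SE 0.23, adjusted p = 0.00305). Its P40 groups overlapped, with 2.25 to 3.68% in WT and 3.56 to 4.81% in the KO. Il21, a cytokine of T cells, had 2.5% and 2.12% in WT and 4.66% and 3.98% in mi5 (log2 odds ratio 0.92, SE 0.32, adjusted p = 0.0214), and it did not pass when either WT library or Dnmt3a_mi5_4mo replicate 1 was omitted (adjusted p = 0.0791 to 0.111).

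Genes of germ cells, the spindle and the centrosome gave 9 members, which all rose (median log2 odds ratio 0.72), 4 of them whichever 4-month library was left out. Tex9, a testis-expressed gene, had 3.06% and 2.88% in 4-month WT and 4.46% and 4.47% in mi5 (log2 odds ratio 0.61, SE 0.17, adjusted p = 0.00604). Its P40 WT levels were higher, 4.28%, 4.18%, 4.24% and 3.64%. Cep152, which acts in centriole duplication, rose from 2.96% and 2.74% to 4.76% and 4.44% (adjusted p = 0.00626; 0.0508 with WT_4mo replicate 2 omitted). Cenpf, a kinetochore protein, rose from 2.73% and 2.86% to 5.10% and 5.17% (adjusted p = 0.00305).

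All 6 channel and transporter genes rose (median log2 odds ratio 0.91), 5 of them whichever 4-month library was left out. Slc25a13, the mitochondrial aspartate-glutamate carrier, rose from 2.87% and 2.88% to 5.03% and 4.96% (log2 odds ratio 0.83, adjusted p = 0.00305). Slc12a1, the kidney sodium-potassium-chloride transporter, rose from 2.67% and 2.74% to 5.38% and 5.04% (adjusted p = 0.00305). Hcn4, the pacemaker channel of the heart, had 2.91% and 3.49% in WT and 5.48% and 5.27% in mi5 (adjusted p = 0.0129), and it did not pass when WT_4mo replicate 1 was omitted (adjusted p = 0.103) or Dnmt3a_mi5_4mo replicate 1 was (adjusted p = 0.0537). Lep, which encodes the fat hormone leptin, was 1 of 4 secreted regulators, all of which rose, 2 of them whichever 4-month library was left out. It went from 2.79% and 2.88% to 5.22% and 5.40% (adjusted p = 0.00606; 0.0509 with WT_4mo replicate 1 omitted).

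The largest proportional rises also included Tunar, Nuak2 and Adgrg5. Tunar, a long non-coding RNA of pluripotent and neural cells, rose from 2.85% and 2.83% to 5.34% and 5.98% (log2 odds ratio 1.04, SE 0.22). Nuak2, a kinase related to AMPK, rose from 3.03% and 2.93% to 5.89% and 5.93% (log2 odds ratio 1.03, SE 0.21). Adgrg5, an adhesion receptor, rose from 2.72% and 3.06% to 5.21% and 6.15% (log2 odds ratio 1.02, SE 0.21). All 3 had an adjusted p of 0.00305, the smallest of the members, and non-overlapping groups at both ages. Mutant libraries all above WT were found at 4 months in 93.6% of genes with 5000 mean calls or more, and at P40 in 67.0%. The 33 members that do not code for protein resembled the 139 that do, with 32 and 135 rises and median log2 odds ratios of 0.76 and 0.82.

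At the lower end of the 4-month WT levels were Prag1, Ppp1r17 and Il21. Prag1, a pseudokinase scaffold, rose from 2.25% and 2.33% to 4.15% and 4.01% (adjusted p = 0.00305). Ppp1r17, a phosphatase inhibitor of Purkinje cells, rose from 2.48% and 2.13% to 3.83% and 4.65% (adjusted p = 0.00416). The non-coding locus Gm27162 was lower still, at 2.05% and 1.99% in WT, and had 4.77% and 3.27% in mi5 (adjusted p = 0.00362; 0.0548 with Dnmt3a_mi5_4mo replicate 1 omitted).

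At P40 the same genes lay higher in the miR29 KO, as a description. The median member had 3.21% in WT and 4.83% in the KO, a median difference of 1.61 points and a median log2 odds ratio of 0.61, against 0.65 over all genes. At the threshold used for 4 months, 170 members were above WT (76.5% of all genes tested, 85.7% of those with 5000 mean calls or more), all but Tmem35a and Ropn1l, but the WT libraries chose the members, so this count is no test. In 142 members every KO library lay above every WT library (57.1% and 67.0%). In each library the number of members at 3% or more was 63, 171, 164 and 81 in WT and 172, 172, 172 and 171 in the KO. At 4 months it was 81 and 91 in WT and 172 in both mi5 libraries. P40 WT libraries 1 and 4, and both 4-month WT libraries, thus held far fewer members at that level than P40 WT libraries 2 and 3.

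The members remained near the top of the 4-month WT libraries, whose levels were not used to choose them. Pooled over those 2 libraries 85 members were at 3% or more, and 101 ranked among the 172 highest of the genes in scope. Within the top 5% were 167, and the median percentile was 98.98. The lowest was Gm27162, at percentile 83.3. The members' mean level over that of all genes tested was 2.38 to 2.42 in P40 WT, 2.21 to 2.34 in the KO, 2.40 and 2.55 in 4-month WT and 2.35 in both mi5 libraries. Of the members 136 were lower in 4-month than in P40 WT and 36 were higher. Over all genes in scope 31.6% were higher. The choice by high P40 WT levels favours lower values in other libraries, so nothing is read from these counts.

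A few members stood far above their P40 level in 4-month WT. The ratio of the mean levels was 1.94 in Agmat and in Ccm2l, a gene related to the cerebral cavernous malformation gene Ccm2. It was 1.69 in Tap1, 1.52 in Tmem35a, 1.49 in Cldn18, 1.41 in Usb1, 1.35 in Gbx1, 1.32 in A930004D18Rik, 1.31 in Ppp1r3b and 1.26 in Bmp7. Ccm2l had 2.92 to 3.56% in P40 WT, 3.15 to 4.78% in the KO, 6.17% and 6.13% in 4-month WT and 8.58% and 8.99% in mi5 (adjusted p = 0.00667). Its 4-month WT libraries were thus above every P40 library, KO included, as were those of Agmat and Tap1. The calls per library of these 10 genes at 4 months were 0.493 to 0.812 of those at P40, within the range of the genes in scope (5th to 95th percentile 0.449 to 0.820). Age goes together with the cohort here, and the 2 cannot be told apart. Without these 10 members 160 of the other 162 rose in mi5.

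**Figure D5:**
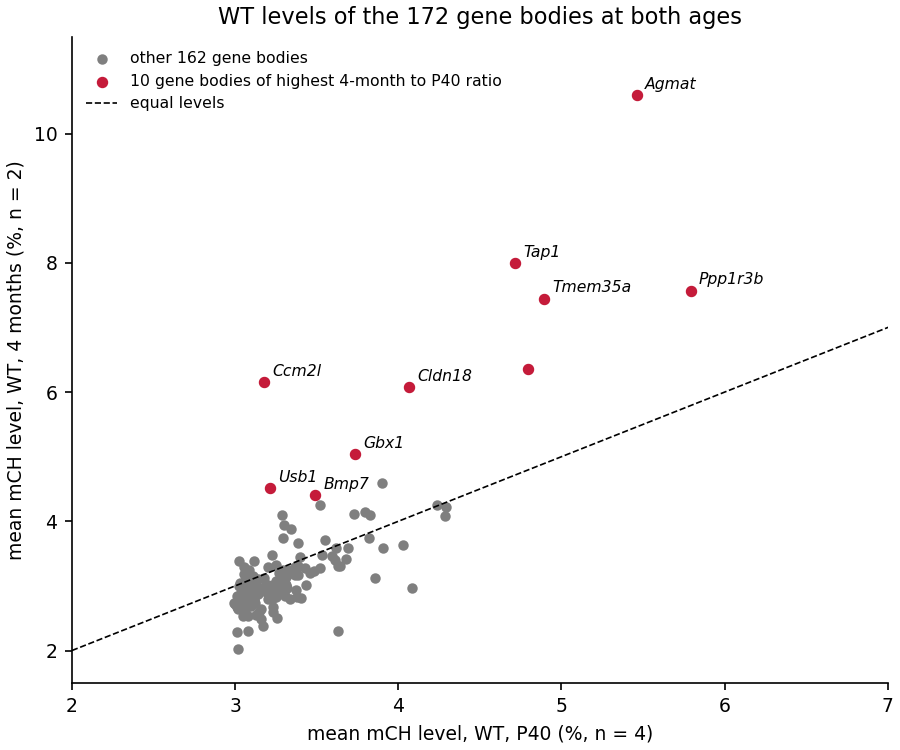
Mean mCH level of the 172 members in P40 WT (x axis, %, n = 4) and 4-month WT (y axis, %, n = 2); the dashed line marks equal levels. Red points are the 10 members with the highest ratio, from 1.26 in Bmp7 to 1.94 in Agmat, and most grey points lie below the line.

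Some members lie next to each other. By gene order in RefSeq, 14 members (8.14%) had a flanking gene that was also a member, and 222 other genes in scope (1.58%) flanked a member. Flanking pairs were Erp27 and Arhgdib, Spo11 and Bmp7, Tead1 and Parva, Car2 and Car3, Casq2 and Vangl1, and Msi2 and C030037D09Rik among others. Members that overlapped a member, and may share calls with it, numbered 11. Of these 9 were not among those 14, such as Nfia with E130114P18Rik and Ddc with 1700042O10Rik. Some measured gene was overlapped by 41 members. The 222 flanking genes that are not members had a median 4-month WT level of 1.86%, against 1.29% in the 13835 other genes in scope and 2.99% in the members. Without the members that overlap a member, 156 of 161 rose.

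The promoter windows of members and of other genes in scope held similar numbers of CG. A window of 300 bases was matched by symbol for 119 of 172 members and 11148 of the 14053 other tested genes in scope. Its median number of CG was 17 in the members and 17 in the others, and 7 over all 27025 promoters of the table. The observed over expected CG ratio was 0.6 or more in 61 members (51.3%), in 58.0% of the others and in 36.5% of all promoters. The letters CAC, searched on both strands, occurred in 100% of member windows and in 99.94% of all promoters. Of the 61 members with the higher CG ratio 60 rose at 4 months (median log2 odds ratio 0.81), and of the 58 with a lower one 55 rose (0.86). Agmat and Tmem35a, both CG-poor in the windows shown above, and Fam71f2 were the exceptions in the latter.

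The edge of the set was gradual. Just inside 3% were Fkbp5, a co-chaperone of steroid hormone receptors (3.004%), Cep152 (3.003%) and the non-coding D830013O20Rik (3.002%). Just outside were Smoc2 (2.999%), Parn (2.998%) and Rbp2 (2.998%). Fkbp5 rose from 2.76% and 2.60% to 4.85% and 5.35% at 4 months, D830013O20Rik from 2.79% and 2.66% to 4.44% and 4.65%, and the outsider Parn from 2.51% and 2.73% to 4.57% and 4.95%. Most members were close to this edge, with 142 below 3.5% and 11 at 4% or more. Another transcript with a different value was listed for 37 members. In 29 of these all such transcripts were also at 3% or more, in 8 some were below 3%, and in 0 was one below 2%.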

How the data were processed

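Per the labels' protocols, sonicated DNA of cortex with a lambda spike-in for conversion was bisulfite sequenced. The submitters' processing notes name BSMAP and mm9, without versions. For each RefSeq transcript the authors deposited the count of methylated non-CG calls and a total, an expected count that was whole in 35.7% to 62.2% of values; its derivation was not given in the sources used. Totals were rounded to whole numbers. Of 36672 rows, 300 had no symbol and 1395 rows of 410 repeated identifiers were left out; 1 transcript, that with most calls, was kept for each of 23882 genes. All 172 members were among the 19826 genes with at least 500 calls in every library. The RefSeq tables (GRCm38.p6) gave names, gene order and promoters only, and no gene-body positions are printed because the builds differ.

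For each gene a quasi-binomial logistic model with 1 mean for each group was fitted to the 12 libraries, its dispersion moderated with limma 3.58.1 (R 4.3.3; squeezeVar with trend, robust), and p-values adjusted by Benjamini-Hochberg at 0.05. It was tested on simulated data. Named genes were, among members with a proper symbol, the 10 of highest P40 WT level, the 5 with most calls, the 6 largest and 6 smallest 4-month log2 odds ratios, the 3 highest and 3 lowest 4-month WT levels, the member with most calls of each list with 3 or more members, every cell type marker, and 3 genes on each side of the 3% threshold. Members and lists were chosen with earlier results of these data known. Alternatives covered scale, filters, centring, background, replicate block, moderation, member thresholds and leaving out each library. No 2 libraries of a group agreed within sampling noise. Python 3.11.15, pandas 2.3.3, numpy 2.4.6, scipy 1.17.1 and matplotlib 3.10.9 did the rest.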

Additional observations from a re-analysis of the deposited data

Results flagged for a closer look

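In groups of 4 libraries, a value that stood apart from the other 3 was looked for in the named genes and in the members' summed levels. Of 76 such groups 2 held one, and chance gives about 1 in 20. Both were Tex9, a testis-expressed gene. In P40 WT the fourth library had 3.64%, below the 4.18 to 4.28% of the others. In the P40 KO the fourth library had 4.23%, below 5.25 to 5.46%, a gap just past the limit for 4 samples. The fourth KO library was also the lowest in the members' pooled level, at 3.98%.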

How the results depend on the processing

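Centring each library on its own median gene changed the results most. The genes that rose at 4 months went from 11653 to 0 and the members from 167 to 0, those past the threshold at P40 went to 207 genes and 0 members, and the members' median log2 odds ratio became -0.049. Of 36 named genes 25 were then negative. Agmat (-0.74), Usb1 (-0.72), Fam71f2 (-0.54) and Tmem35a (-0.53) had not passed before centring either. The others were Ppp1r3b (-0.22), Tap1 (-0.11), Smad5 (-0.35), Wnt5a (-0.041), Tex9 (-0.26), Crnde (-0.14), Cldn18 (-0.27), Wwox (-0.045), Sox6 (-0.23), Nfia (-0.049), Pard3 (-0.056), Gbx1 (-0.40), Dmgdh (-0.39), Prag1 (-0.0082), Cux1 (-0.26), Slc25a13 (-0.039), Zfp521 (-0.14), Bmp7 (-0.19), Il17rd (-0.043), Cep152 (-0.15) and D830013O20Rik (-0.10). Centring removes any shift common to all genes by construction. Leaving out 1 library at a time gave 4547 to 13333 genes, 115 to 168 members and a median of 0.80 to 0.84; a group left with 1 library was assumed to vary like the others. With the 1st percentile of gene levels subtracted the members' median was 0.85, against 0.94 over all genes. By limma on log2(percent + 0.1) it was 0.76 in both, and with a pseudocount of 0.5 it was 0.69 against 0.62. Whether the members lay below, level with or above all genes on these scales thus depended on the processing. A member threshold of 2.5% gave 1015 members, of which 984 rose (median 0.86), and one of 3.5% gave 30, of which 27 rose (0.72). With 10000 mean calls or more, 125 of 125 members rose, and the share of all genes at that depth was not taken. Fitted on the 4-month libraries alone, 14563 genes and 164 members rose, and Ppp1r3b, Bag3, Gbx1 and Dmgdh no longer passed. Unmoderated dispersion left 10133 genes and 151 members. With the replicate number as a block 12340 genes and 167 members rose. Across genes, same-numbered libraries did not deviate together (correlations -0.08 at 4 months and -0.05 to 0.10 at P40). A shift common to all genes of a library does not enter these correlations, so they cannot decide whether the numbers pair the libraries. All 5 members that did not pass had under 10000 mean calls, where 42 of 47 passed, and the part of depth was not tested.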
